A study of Mus musculus with 6 samples.

Results

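The Slc25 genes encode the mitochondrial carrier family, and their transcripts were compared in mouse bone marrow between the wild type (WT) and a knock-out of Txnip (Txnip-KO). The members were taken as every feature whose symbol begins with Slc25a, except Slc25a20, which gave 46 members of 31253 features. Of these, 39 had enough counts to be tested over all kept cells. The other 7, Slc25a54, Slc25a18, Slc25a48, Slc25a31, Slc25a34, Slc25a2 and Slc25a41, held 0, 2, 8, 13, 15, 33 and 80 UMIs in the 6 samples together. A UMI (unique molecular identifier) marks a single captured transcript.

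Carriers of this family sit mostly in the inner mitochondrial membrane and pass a solute between the cytosol and the matrix, often in exchange for another. They let ADP in and ATP out, bring in phosphate, exchange citrate and other citric acid cycle intermediates, and carry amino acids, nucleotides, cofactors, iron and glutathione. In bone marrow the family is best known for the iron and glycine carriers that feed heme synthesis in red cell precursors.

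Flow-sorted bone marrow cells of 3 WT and 3 Txnip-KO samples were profiled with a droplet assay that reads the 3′ end of each transcript. The genotype is the difference between the groups that the labels give. Not stated in the sources read here are which cells were sorted, the knock-out allele, the strain and age of the mice, and whether each sample came from its own animal. The spread behind the p-values is that of these 6 samples and may be technical. Txnip encodes thioredoxin-interacting protein, which binds thioredoxin and restrains glucose uptake.

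The samples hold 61368478 to 80876483 UMIs, and 6023 to 7827 cells per sample were kept, 41513 in all. The median cell held 8918 to 9176.5 UMIs in WT and 6932 to 8187 in Txnip-KO, and 77.9 to 78.9% of WT and 69.7 to 76.1% of Txnip-KO cells held a UMI of 19 genes of dividing cells. Between 41 and 68 kept barcodes per sample also occurred in another sample. Txnip stood at 305, 209 and 269 counts per 1000000 total UMIs (CPM) in WT 1, 2 and 3 against 10.8, 9.60 and 0.459 in Txnip-KO 1, 2 and 3 (log2 fold change -5.34, SE 0.80, edgeR quasi-likelihood test, adjusted p = 0.0024), so the labels and the targeted gene go together in all 6 samples. The 8 neutrophil markers summed to 495 to 601 CPM in WT and to 7483, 437 and 1873 in Txnip-KO 1, 2 and 3, and the 5 plasma cell markers to 1319.9 CPM in Txnip-KO 2 against 66.7 to 86.1 in the other 5 samples. Of the 19 marker lists, 4 summed higher and 4 lower in all 3 Txnip-KO than in all 3 WT samples. The higher ones were HSC (175 to 206 CPM in WT against 268 to 362 in Txnip-KO), group 2 innate lymphoid (64.9 to 74.9 against 84.3 to 96.0), stromal (1.87 to 12.5 against 41.0 to 74.4) and macrophage (3.87 to 6.84 against 9.85 to 12.7). The lower ones were basophil or mast (1222 to 1854 against 399 to 977), granulocyte-monocyte progenitor (1182 to 1558 against 956 to 1062), plasmacytoid dendritic (944 to 1251 against 727 to 885) and B-lineage (242 to 318 against 123 to 205). The part of these in the results over all kept cells was not tested, apart from a run with equal cell numbers per gated type given below. Cells were gated by marker genes that include no Slc25 member, and 13 types with at least 20 cells in every sample hold 62.3% of the kept cells. They are called HSC-like (blood stem cells), lymphoid-primed progenitor-like, B-lineage-like, granulocyte-monocyte progenitor-like, erythroid-like, megakaryocyte-like, basophil or mast-like, NK-like, group 2 innate lymphoid-like, plasmacytoid dendritic-like, monocyte-like, neutrophil-like and class II-high cells. The last got no cell type name because 6 of 7 dendritic but also 6 of 7 monocyte markers were raised in them. In sums over cells, fewer cells of a type and less RNA per cell cannot be told apart. Gated shares of kept cells, WT then Txnip-KO (%, SD, n = 3 each), were 4.02 ± 0.46 and 6.83 ± 2.05 for HSC-like cells. They were 7.62 ± 0.69 and 4.37 ± 1.66 for basophil or mast-like and 2.31 ± 0.58 and 1.47 ± 0.49 for granulocyte-monocyte progenitor-like cells. Plasmacytoid dendritic-like cells held 5.07 ± 0.90 and 1.81 ± 0.60, B-lineage-like 4.34 ± 0.34 and 2.16 ± 0.63. Group 2 innate lymphoid-like cells held 1.39 ± 0.20 and 0.84 ± 0.10, though their marker sum was higher.

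Over all kept cells the family moved in both directions. Of the 39 tested members, 7 were higher and 9 lower in Txnip-KO and 23 were not called (edgeR quasi-likelihood test, p-values adjusted over all genes, threshold 0.05). Of all 14648 genes tested, 21.8% were called higher and 19.3% lower, so the members' counts lie near the background. The median log2 fold change was -0.02 over the tested members and 0.04 over all genes. In all 16 called members the 3 Txnip-KO samples lay on 1 side of the 3 WT samples. How often this holds among all called genes was not counted, so it sets the members apart from no other genes. With scaling by total UMIs, an alternative chosen after seeing the data, the median over all genes was 0.14, 4073 genes were higher and 1972 lower in place of 3190 and 2834, and 10 members were higher and 8 lower. With an equal number of cells of each gated type in every sample, 16674 cells in all, 7 members were higher and 9 lower. Of 13251 genes tested there, 2800 were higher and 2627 lower. Slc25a37 (0.16) and Slc25a10 (-0.41) lost their calls in that run, and Slc25a53 (0.42) and Slc25a3 (-0.23) were called. The 10267 cells without a UMI of the dividing genes gave 5 members higher and 3 lower, where 1314 of 12034 genes were higher and 1337 lower. These cells are another mix of types than all kept cells. Of the WT granulocyte-monocyte progenitor-like cells (median 15821 UMIs) 98.9% held such a UMI, against 60.6% of the NK-like ones (4528). In the basophil or mast-like gate 66.3% of Txnip-KO but 48.0% of WT cells held one. In the other 12 gates the Txnip-KO percentage was the lower. The part of this mix and depth in lost calls and turned signs was not tested.

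**Figure D1:**
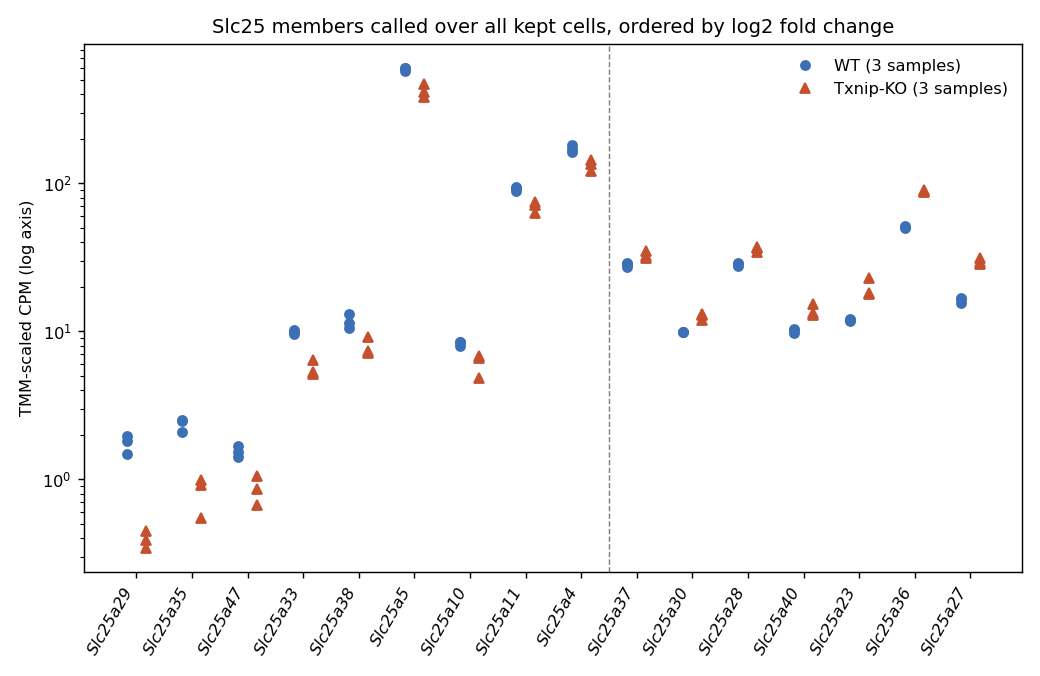
TMM-scaled CPM (log axis) of the 16 Slc25 members called over all kept cells, 1 point per sample, WT as circles and Txnip-KO as triangles, ordered by log2 fold change. Left of the dashed line stand the 9 members lower in Txnip-KO and right of it the 7 higher ones, and in each member the groups do not overlap.

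Summed over the 46 members, the family held 1891, 1925 and 1923 CPM of total UMIs in WT 1, 2 and 3 against 1741, 1854 and 1812 in Txnip-KO 1, 2 and 3. All 3 Txnip-KO samples lay below the WT samples, with a mean of 94.2% of WT (two-sided exact permutation p = 0.1, the smallest that 3 samples against 3 allow). Slc25a3, Slc25a4 and Slc25a5 together made up 66.1% ± 0.418 of the family's UMIs in WT and 59.2% ± 1.58 in Txnip-KO (SD, n = 3 each). The fall of the sum lies in these 3, because the other members together were higher in Txnip-KO. That rise is on total UMIs, a scale on which the median log2 fold change over all genes was 0.14. Within the 13 types the family's mean was lower in Txnip-KO in 12, with no overlap of the samples in 7. It was higher, without overlap, in the basophil or mast-like cells (1317 ± 36.8 CPM in WT and 1628 ± 151 in Txnip-KO, SD, n = 3 each). The median cell of that gate held 2421.5 UMIs in WT and 5814 in Txnip-KO, and 75.1 to 79.1% of its cells in WT and 31.3 to 60.7% in Txnip-KO held a UMI of the basophil genes Mcpt8 or Prss34; the part of these in the result was not tested.

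The adenine nucleotide and phosphate carriers are the most abundant of the family, and of the 6 tested, 2 were lower, 1 higher and 3 not called. Slc25a5 and Slc25a4, which exchange ADP for ATP, both fell. Slc25a5 stood at 573, 602 and 603 TMM-scaled CPM in WT 1, 2 and 3 against 384, 470.3 and 417 in Txnip-KO 1, 2 and 3 (log2 fold change -0.49, SE 0.09, edgeR adjusted p = 0.00409). Slc25a4 stood at 164, 171 and 182 CPM in WT against 122, 144 and 135 in Txnip-KO (-0.37, SE 0.08, edgeR adjusted p = 0.00902). In both genes each Txnip-KO sample lay below each WT sample. In the cells without a dividing UMI neither was called, with Slc25a5 at -0.29, adjusted p = 0.0537, and Slc25a4 at -0.16, adjusted p = 0.388. With each cell thinned to 1000 UMIs, Slc25a4 stood at -0.30, adjusted p = 0.0723. Slc25a3, the phosphate carrier that supplies ATP synthesis, was at 527, 537 and 570.4 CPM in WT against 429, 503 and 494 in Txnip-KO. Its groups do not overlap, but it was not called (-0.20, SE 0.08, edgeR adjusted p = 0.0834), except with the replicate number as a block (-0.20, adjusted p = 0.0436), without Txnip-KO replicate 2 (-0.27, adjusted p = 0.0494), with DESeq2's Wald test (-0.22, adjusted p = 0.0334) and with equal cell numbers per type in every sample (-0.23, adjusted p = 0.0335). Slc25a23, a calcium-regulated carrier that exchanges ATP-Mg for phosphate, rose, from 11.8, 12.1 and 12.0 CPM in WT to 17.8, 18.2 and 23.0 in Txnip-KO (0.72, SE 0.11, edgeR adjusted p = 0.00235). Its relatives Slc25a24 (0.15) and Slc25a25 (0.02) were not called.

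Of the 4 citric acid cycle and dicarboxylate carriers, 2 were lower. Slc25a11, which exchanges 2-oxoglutarate for malate in the malate-aspartate shuttle, held 89.1, 93.1 and 95.2 CPM in WT against 63.1, 71.5 and 74.4 in Txnip-KO (log2 fold change -0.41, SE 0.08, edgeR adjusted p = 0.00525). Its Txnip-KO samples all lay below its WT samples. Slc25a11 shares 189 exonic bases with Rnf167 on the opposite strand, which was called higher (0.33, edgeR adjusted p = 0.0158); no source read here gives the counting strand, so reads of such a pair may be mixed. The dicarboxylate carrier Slc25a10 was lower (-0.44, edgeR adjusted p = 0.0316), but its call was lost in 7 of the alternatives, among them each WT replicate left out (adjusted p = 0.0604 to 0.0949), and in the cells without a dividing UMI its log2 fold change was 0.08. The citrate carrier Slc25a1 (-0.14) and the oxoadipate carrier Slc25a21 (0.41) were not called.

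Among the amino acid carriers, 2 of 7 tested were lower and none was called higher. Slc25a29, a carrier of basic amino acids, had the largest log2 fold change of the 39 tested members. It held 1.49, 1.80 and 1.95 CPM in WT against 0.446, 0.342 and 0.386 in Txnip-KO (-2.16, SE 0.22, edgeR adjusted p = 0.000954), on 421 UMIs in all. Slc25a38, the glycine carrier of heme synthesis, held 10.6, 11.4 and 13.03 CPM in WT against 7.33, 7.09 and 9.14 in Txnip-KO (-0.57, SE 0.13, edgeR adjusted p = 0.00964). In both genes the groups do not overlap. Slc25a12, an aspartate-glutamate carrier and the most abundant of this group, held 25.4, 27.9 and 27.2 CPM in WT against 22.4, 24.7 and 25.2 in Txnip-KO and was not called (-0.15, edgeR adjusted p = 0.126). Slc25a44, a carrier of branched-chain amino acids, stood at 0.27, edgeR adjusted p = 0.0572, and at 0.27, adjusted p = 0.0484 with the replicate block.

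The cofactor and nucleotide carriers held 1 higher and 1 lower member of 9 tested, and these are the 2 carriers of pyrimidine nucleotides. Slc25a36 held 51.5, 50.3 and 51.2 CPM in WT against 90.9, 87.2 and 89.3 in Txnip-KO (log2 fold change 0.81, SE 0.06, edgeR adjusted p = 0.000369). Slc25a33 held 9.87, 9.63 and 10.3 CPM in WT against 5.28, 5.15 and 6.40 in Txnip-KO (-0.82, SE 0.11, edgeR adjusted p = 0.00184). The 2 genes moved in opposite directions, with no overlap of the groups in either. Slc25a33 stood at -0.38, adjusted p = 0.217 in cells thinned to 1000 UMIs and at -0.55, adjusted p = 0.0878 in cells without a dividing UMI. The other 7, among them the NAD carrier Slc25a51 (0.09), the S-adenosylmethionine carrier Slc25a26 (-0.17) and the folate carrier Slc25a32 (0.01), were not called.

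Promoter sequences from RefSeq (build GRCm38.p6) were matched by symbol for 35 of the 46 members, some with more than 1 start, each start counted as a promoter. Over the 250 bases before each start and on both strands, CACGTG, an E-box, occurred in 8 of 45 member promoters, those of 7 members, and in 6.02% of all 32851. Overlapping promoters of Slc25a14 hold the same site, so the distinct sites number 7. Promoters of all genes were counted by start in the same way. CCGGAAG, an ETS factor word, occurred in 5 member promoters and in 6.91% of all, and the NRF1 word in 2 member promoters and in 3.74% of all; none of these words contains another. The E-box sites of 6 of these members are shown because Slc25a36 and Slc25a33, which moved in opposite directions, both hold one. Each is given as 30 bases in the direction of transcription with the word in capitals.
Slc25a36, chr9:97111211-97111240, minus strand: cccctgggcgatCACGTGaaagaggcgtgc
Slc25a33, chr4:149774268-149774297, minus strand: gacgtcacggcccggcctccgcCACGTGac
Slc25a1, chr16:17928440-17928469, minus strand: cgctccagacgCACGTGtctctaaactgca
Slc25a13, chr6:6217281-6217310, minus strand: cacagtctgagtCACGTGtcctggcccctc
Slc25a14, chrX:48623382-48623411, plus strand: tccacctccctcCACGTGacgccccaccca
Slc25a15, chr8:22398337-22398366, minus strand: cgccctgccgcaCACGTGccgcggctccgg
The last base of the word lies 182 bases before the RefSeq start in Slc25a36 and 3 bases before it in Slc25a33. Of the members shown, Slc25a36 was higher, Slc25a33 lower and the other 4 not called over all kept cells. The ETS word is shown for Slc25a3 and Slc25a4, which are among the most abundant members, and for Slc25a38.
Slc25a3, chr10:91124124-91124153, minus strand: cactagcagggCCGGAAGggctggggttgg
Slc25a4, chr8:46211174-46211203, minus strand: acccctagctcCCGGAAGcgtcttcgcccc
Slc25a38, chr9:120110325-120110354, plus strand: acgctatgtcaCCGGAAGcgggatctcacc
Of these 3, Slc25a4 and Slc25a38 were lower in Txnip-KO and Slc25a3 was not called. Slc25a17, which was not called (-0.06), and Slc25a54, which was not tested, also hold the ETS word and are not shown. A match says only that the letters occur there.

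Of the 4 iron and glutathione carriers, 3 were higher and none was called lower. Slc25a28 and Slc25a37, the mitoferrins, bring iron into mitochondria. Slc25a28 rose from 28.3 ± 0.622 to 36.1 ± 1.51 CPM (SD, n = 3 each, 0.35, edgeR adjusted p = 0.00381). Slc25a37 was at 28.3 ± 0.815 in WT against 32.8 ± 1.84 in Txnip-KO (SD, n = 3 each, 0.22, edgeR adjusted p = 0.0308), a call lost in 10 of the alternatives, which include leaving out any 1 of the WT replicates or Txnip-KO replicate 2 or 3 (adjusted p = 0.0625 to 0.117). Slc25a40, a glutathione carrier, held 10.2, 10.3 and 9.77 CPM in WT against 12.8, 13.4 and 15.3 in Txnip-KO, all above WT (0.45, SE 0.09, edgeR adjusted p = 0.0062). In cells without a dividing UMI Slc25a40 was at 0.70, adjusted p = 0.0637. Its close relative Slc25a39, the most abundant of the group, held 54.6, 59.2 and 60.9 CPM in WT against 47.9, 59.6 and 64.6 in Txnip-KO, and the groups overlap (-0.02, edgeR adjusted p = 0.894).

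The uncoupling protein-like carriers, named for their likeness to the proton carrier of brown fat, held 2 higher members of 3. Slc25a27 held 16.9, 15.4 and 16.6 CPM in WT against 28.5, 29.5 and 31.6 in Txnip-KO (log2 fold change 0.87, SE 0.07, edgeR adjusted p = 0.0005). Slc25a30 held 9.95, 9.93 and 9.87 CPM in WT against 13.02, 12.0 and 12.8 in Txnip-KO (0.35, SE 0.08, edgeR adjusted p = 0.00926). Both lay above WT in all 3 Txnip-KO samples. In cells without a dividing UMI Slc25a30 stood at -0.00059, adjusted p = 0.998, and in thinned cells at 0.18, adjusted p = 0.432. Slc25a14 was not called (-0.28, edgeR adjusted p = 0.148).

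Of the 6 tested carriers without an agreed substrate or with a role in mitochondrial shape, 2 were lower and 4 not called. Slc25a35 held 2.08, 2.48 and 2.51 CPM in WT against 0.549, 0.984 and 0.917 in Txnip-KO (log2 fold change -1.52, SE 0.24, edgeR adjusted p = 0.00288). It shares 545 exonic bases with Rangrf on the opposite strand, which was also called lower (-0.39, edgeR adjusted p = 0.0362), so its value is uncertain. Slc25a47 held 1.52, 1.69 and 1.42 CPM in WT against 0.858, 1.06 and 0.676 in Txnip-KO (-0.83, SE 0.22, edgeR adjusted p = 0.0178), and -0.77, adjusted p = 0.0741 when WT replicate 2 was left out. Slc25a46, an outer membrane protein that bears on mitochondrial fission and fusion and the most abundant of this group, held 24.7, 25.1 and 26.0 CPM in WT against 26.0, 24.6 and 23.9 in Txnip-KO and was not called (-0.02, edgeR adjusted p = 0.777).

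Within the 13 gated types, 359 pairs of a member and a type could be tested, and 40 were higher and 45 lower in Txnip-KO. Of all genes, 0.793 to 21.8% were called higher and 0.134 to 22.8% lower, depending on the type. The shares of each type are given below beside its members. In 84 of the 85 called pairs the groups do not overlap, the exception being Slc25a27 in the erythroid-like cells. The share of all called genes without overlap was not counted. The called pairs belong to 23 members, and no member was called higher in 1 type and lower in another. The counts fell to 24 higher and 25 lower without WT replicate 2, and to 23 and 21 without WT replicate 3. They fell to 8 and 11 with each cell thinned to 1000 UMIs and to 4 and 5 in the cells without a dividing UMI.

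**Figure D2:**
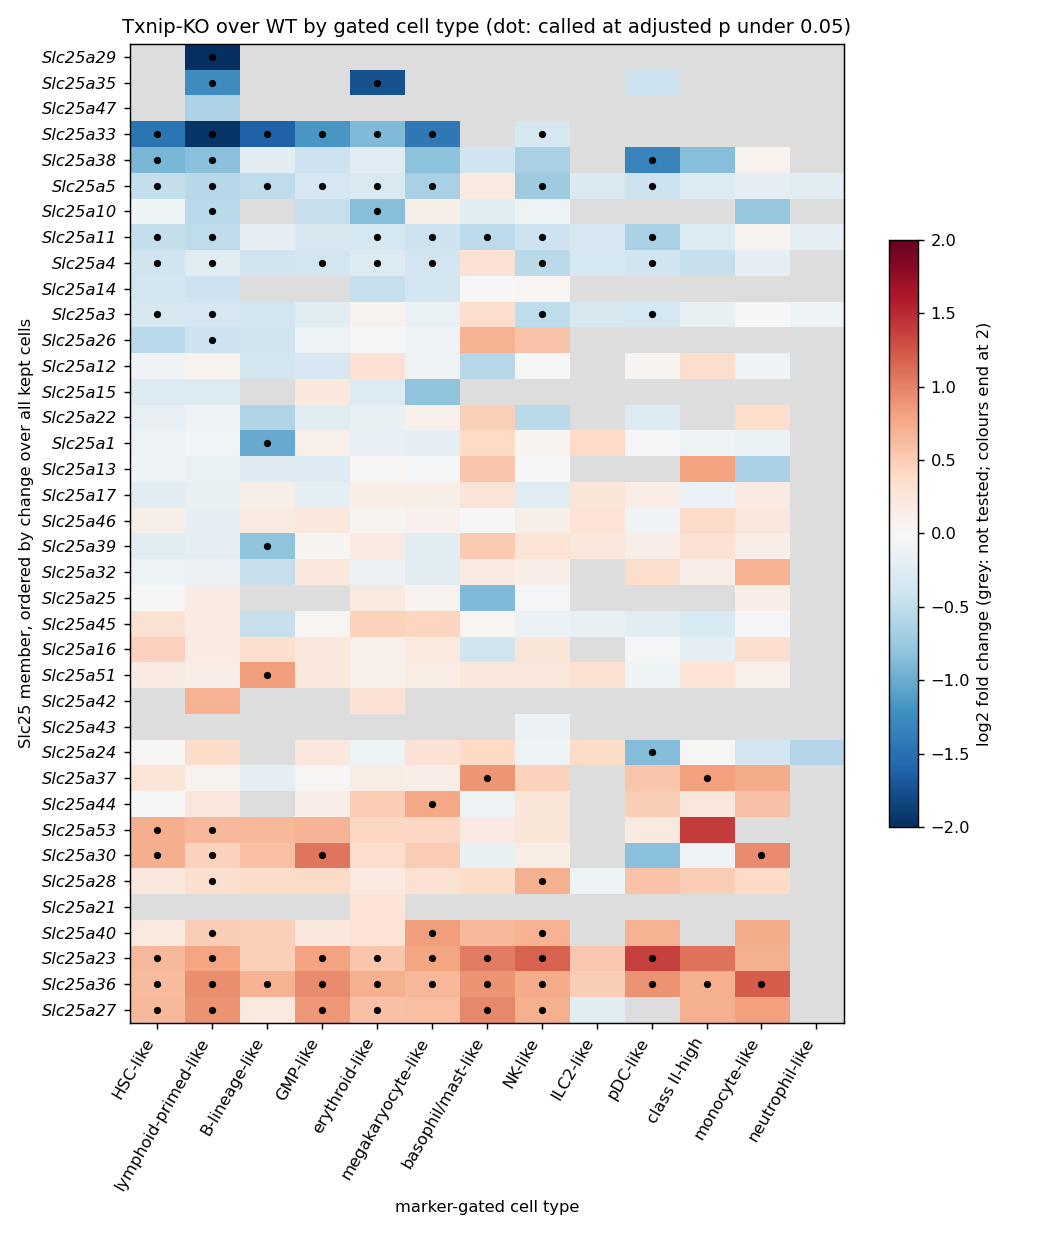
Log2 fold change, Txnip-KO over WT, of 38 tested Slc25 members (rows, ordered by their change over all kept cells) in each gated cell type (columns), with a dot on called pairs and untested pairs in grey. Slc25a36 and Slc25a23 are positive in each of the 12 types in which they were tested, and Slc25a33 is negative in each of 7.

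Slc25a36 rose in 11 of the 12 types in which it was tested, with log2 fold changes of 0.50 to 1.21 over all of them. The type without a call was the group 2 innate lymphoid-like cells, where it stood at 64.7, 88.3 and 79.2 CPM in WT against 118, 108 and 103 in Txnip-KO (0.50, edgeR adjusted p = 0.236). With types taken from Leiden clusters in place of marker gates it was called there too (0.63, adjusted p = 0.00514). The fold change was largest in the monocyte-like cells, with 30.7, 29.99 and 32.4 CPM in WT against 76.9, 63.3 and 72.9 in Txnip-KO (1.21, SE 0.15, edgeR adjusted p = 0.000327). In each of the 12 types the 3 Txnip-KO samples lay above the 3 WT samples. Slc25a23 rose in 8 of 12 types (0.48 to 1.36 over the 12), most in the plasmacytoid dendritic-like cells, with 25.5, 14.0 and 10.3 CPM in WT against 41.2, 33.5 and 44.4 in Txnip-KO (1.36, SE 0.28, edgeR adjusted p = 0.00139). Its call in the basophil or mast-like cells (1.05, edgeR adjusted p = 0.0396) was lost in 9 of 15 alternatives. Among them were the replicate block (1.04, adjusted p = 0.0569) and Leiden clusters (0.75, adjusted p = 0.15). Slc25a27 rose in 6 of 11 types, Slc25a30 in 4 of 11 and Slc25a40 in 3 of 10. Slc25a53, which has no agreed substrate, was called higher in the HSC-like (0.72) and lymphoid-primed progenitor-like cells (0.65) but not over all kept cells (0.32, edgeR adjusted p = 0.0549).

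Among the members that fell, Slc25a5 was lower in 8 of 13 types, Slc25a4 in 7 of 12, Slc25a11 in 7 of 13, Slc25a3 in 4 of 13 and Slc25a38 in 3 of 11. Slc25a33 was lower in all 7 types in which it was tested. In the lymphoid-primed progenitor-like cells it held 7.89, 9.35 and 8.31 CPM in WT against 1.22, 2.33 and 2.66 in Txnip-KO (log2 fold change -1.96, SE 0.22, edgeR adjusted p = 4.47e-05). In the NK-like cells, where its WT level was highest, it held 36.8, 33.4 and 36.9 CPM in WT against 30.9, 23.6 and 29.4 in Txnip-KO (-0.35, SE 0.13, edgeR adjusted p = 0.0479). That call was lost in 10 of 17 alternatives, among them Leiden clusters (-0.18, adjusted p = 0.276), scaling by total UMIs (-0.19, adjusted p = 0.299) and leaving out any 1 of the WT replicates or Txnip-KO replicate 2. In the B-lineage-like cells its call (-1.62, edgeR adjusted p = 0.0317) was lost in 8 of 13 alternatives, among them the replicate block (-1.64, adjusted p = 0.0659). Slc25a29 could be tested in the lymphoid-primed progenitor-like cells alone, where it was lower (-2.43, edgeR adjusted p = 0.000588).

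**Figure D3:**
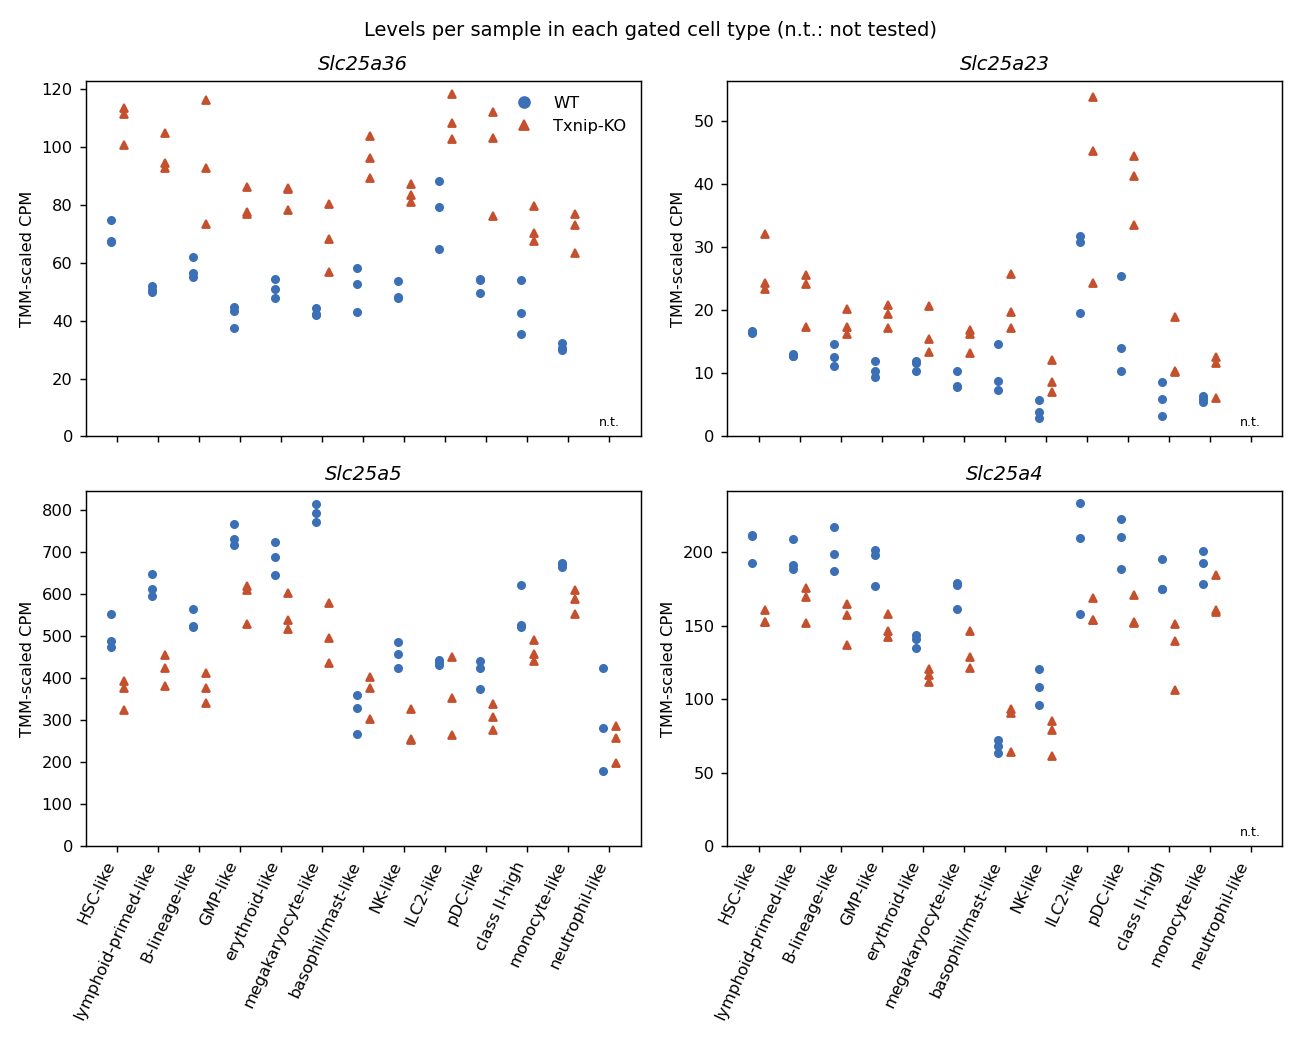
TMM-scaled CPM per sample of Slc25a36, Slc25a23, Slc25a5 and Slc25a4 in each gated cell type, WT as circles and Txnip-KO as triangles (linear axes from 0; n.t. marks a type in which the member was not tested). The Txnip-KO samples lie above WT for Slc25a36 in the 12 tested types and below WT for Slc25a5 in the 8 types in which it was called.

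By cell type, the members called are set beside the share of all genes called. In the HSC-like cells 5 of 33 tested members were higher and 6 lower, where 11.8% of all genes were called higher and 14.1% lower. The 3 with the smallest p were Slc25a36 (0.63), Slc25a27 (0.65) and Slc25a5 (-0.47). In the lymphoid-primed progenitor-like cells 7 of 37 were higher and 10 lower (21.8% and 22.8% of all genes), led by Slc25a36 (0.93), Slc25a27 (0.90) and Slc25a33. In the granulocyte-monocyte progenitor-like cells 4 of 31 were higher and 3 lower (12.1% and 12.3%), led by Slc25a36 (0.94), Slc25a30 (1.07) and Slc25a5 (-0.33). In the erythroid-like cells 3 of 36 were higher and 6 lower (13% and 14.1%), led by Slc25a36 (0.71), Slc25a35 (-1.74) and Slc25a10 (-0.85). The heme-related carriers were not called there, with Slc25a38 at 19.6 ± 2.71 CPM in WT against 16.6 ± 4.91 in Txnip-KO (-0.21, edgeR adjusted p = 0.425) and Slc25a37 at 25.5 ± 1.21 and 28.2 ± 3.40 (0.15, edgeR adjusted p = 0.388; SD, n = 3 each). In the megakaryocyte-like cells 4 of 33 were higher and 4 lower (8.73% and 10.7%), led by Slc25a5 (-0.65), Slc25a36 (0.66) and Slc25a11 (-0.42). Slc25a44 was among the higher members there (0.77, edgeR adjusted p = 0.0442), but its call was lost in 10 of 14 alternatives. Among them were the replicate block (0.76, adjusted p = 0.0672) and Leiden clusters (0.63, adjusted p = 0.0504).

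In the NK-like cells 5 of 33 members were higher and 5 lower (13.8% and 14.7% of all genes), led by Slc25a36 (0.74), Slc25a5 (-0.71) and Slc25a28 (0.72). In the plasmacytoid dendritic-like cells 2 of 26 were higher and 6 lower (9.94% and 9.7%), led by Slc25a36 (0.89), Slc25a23 and Slc25a11 (-0.66). The calls of Slc25a3 (-0.35) and Slc25a4 (-0.39) there were lost in 10 and 8 of 17 alternatives. Slc25a24, another ATP-Mg and phosphate carrier, was lower in these cells, at 26.6, 24.8 and 23.1 CPM in WT against 12.7, 13.4 and 14.1 in Txnip-KO (-0.86, edgeR adjusted p = 0.0228). That call was lost in 9 of 16 alternatives, among them a stricter cell filter (-0.44, adjusted p = 0.592), Leiden clusters (-0.51, adjusted p = 0.0651), a stricter gate (-0.58, adjusted p = 0.0694) and leaving out WT replicate 2 or any 1 of the Txnip-KO replicates. In the monocyte-like cells 2 of 28 were higher and 0 lower (9% and 8.49%), namely Slc25a36 and Slc25a30 (0.94), followed by Slc25a37 (0.75, edgeR adjusted p = 0.0683), which was not called. With Leiden clusters Slc25a30 was not called (0.36, adjusted p = 0.275) and Slc25a37 was (0.94, adjusted p = 0.00753). The call of Slc25a30 was lost in 7 of 15 alternatives, among them each replicate left out but Txnip-KO replicate 2, and Slc25a37 was called without Txnip-KO replicate 1 (1.02, adjusted p = 0.0297). In the class II-high cells 2 of 25 were higher and 0 lower (5.21% and 5.92%), namely Slc25a36 (0.71) and Slc25a37 (0.82). The former call was lost in 5 of 15 and the latter in 9 of 14 alternatives, among them leaving out WT replicate 1, WT replicate 2 or Txnip-KO replicate 2 in both and any 1 replicate in the latter. Slc25a4 followed (-0.46, edgeR adjusted p = 0.0526) and was called lower with the replicate block (-0.46, adjusted p = 0.021). In the group 2 innate lymphoid-like cells none of 15 was called by edgeR (0.793% and 0.506% of all genes), and in the neutrophil-like cells none of 4 (1.07% and 0.134%). The smallest p belonged to Slc25a36, Slc25a3 (-0.32) and Slc25a4 (-0.35) in the former, and to Slc25a24 (-0.58), Slc25a5 (-0.22) and Slc25a11 (-0.19) in the latter, a gate of 22 to 305 cells per sample. With Leiden clusters Slc25a36, Slc25a3 (-0.33, adjusted p = 0.0359) and Slc25a4 (-0.47, adjusted p = 0.0271) were called in the group 2 innate lymphoid-like cells.

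The median cell held fewer UMIs in Txnip-KO in 11 of the 13 gates, the exceptions being the basophil or mast-like and neutrophil-like cells, and the share of cells with a dividing UMI was lower in 12. In the lymphoid-primed progenitor-like cells, for example, the median was 13156 UMIs in WT and 9361.5 in Txnip-KO, and in the monocyte-like cells a dividing UMI was present in 91.2% of the cells in WT against 71.9% in Txnip-KO. Markers that divide a gate further were read in the B-lineage-like and basophil or mast-like gates, not in the others. In the B-lineage-like cells 2 of 27 members were higher and 4 lower (10.4% and 8.63% of all genes), led by Slc25a51 (0.84), Slc25a39 (-0.81) and Slc25a36 (0.70). Slc25a1, the citrate carrier, held 192, 185 and 180.1 CPM there in WT against 42.4, 148.8 and 83.7 in Txnip-KO (log2 fold change -1.01, SE 0.30, edgeR adjusted p = 0.037), so the Txnip-KO samples lay below WT and differed among themselves. The median cell of this gate held 8987 UMIs in WT and 3287 in Txnip-KO. A UMI of Dntt, which early B-lineage cells express, was held by 64.8 to 72.2% of its WT cells and by 11.9, 61.9 and 18.5% of the cells of Txnip-KO 1, 2 and 3. In the cells with a Dntt UMI alone, an alternative chosen after seeing the data, Slc25a51 stood at 0.67, adjusted p = 0.019, and Slc25a5 at -0.80, adjusted p = 0.000333, while Slc25a1 (-0.40, adjusted p = 0.0871), Slc25a39 (-0.64, adjusted p = 0.0725) and Slc25a33 (-0.93, adjusted p = 0.309) were not called. In the basophil or mast-like cells 4 of 31 members were higher and 1 lower (6.13% and 7.38% of all genes), led by Slc25a36 (0.90), Slc25a37 (0.88) and Slc25a27 (0.96). In the cells with a Mcpt8 or Prss34 UMI alone, Slc25a36 stood at 0.88, adjusted p = 0.00428, Slc25a27 at 1.01, adjusted p = 0.0336, Slc25a11 at -0.66, adjusted p = 0.00904, and Slc25a37 at 0.51, adjusted p = 0.297. Slc25a3, not called in the whole gate, was called higher in these cells (0.44, adjusted p = 0.0269).

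Whether the genotype effect differed between types was tested as the interaction of type and genotype in one fit, each type against the NK-like cells, the type with the most cells. Of 444 pairs of a member and a type 15 were called, for 10 members in 6 types. The basophil or mast-like cells differed in the 3 most abundant carriers, with Slc25a5 0.85, Slc25a3 0.82 and Slc25a4 0.78 above the NK-like effect on the log2 scale, where 15.6% of all genes were called. Slc25a3 differed in 4 types, also in the erythroid-like (0.62), monocyte-like (0.50, lost in 2 of 12 alternatives) and megakaryocyte-like cells (0.43, lost in 6 of 12). It fell in the NK-like cells, with 469, 439.6 and 523 CPM in WT against 306, 369.9 and 333 in Txnip-KO (log2 fold change -0.51, SE 0.10, edgeR adjusted p = 0.00107). It was not called in the erythroid-like (0.07, edgeR adjusted p = 0.568) or basophil or mast-like cells (0.36, edgeR adjusted p = 0.0866). In the latter it was called higher in 5 of 18 alternatives, with Leiden clusters (0.41, adjusted p = 0.0275), a stricter gate (0.45, adjusted p = 0.0172), scaling by total UMIs (0.42, adjusted p = 0.0464), the narrower gate given above and without Txnip-KO replicate 1 (0.44, adjusted p = 0.00182). In the erythroid-like cells Slc25a5 (0.44, edgeR adjusted p = 0.0351) and Slc25a28 (-0.49, edgeR adjusted p = 0.0488) differed too, where 3.85% of all genes were called. These 2 calls were lost in 6 and 10 of 12 alternatives. In the monocyte-like cells Slc25a5 (0.50, edgeR adjusted p = 0.0206) and Slc25a11 (0.49, edgeR adjusted p = 0.0498) differed as well, with calls lost in 5 and 7 of 12 alternatives. There 3.2% of all genes were called, and the megakaryocyte-like share was 1.67%. The B-lineage-like cells differed in Slc25a51 (0.57), Slc25a37 (-0.68), Slc25a39 (-1.12) and Slc25a1 (-1.10), where 8.3% of all genes were called. The first 2 calls were each lost in 8 of 12 alternatives and the last 2 in 1 each. In the lymphoid-primed progenitor-like cells Slc25a33 differed (-1.53, SE 0.25, edgeR adjusted p = 5.72e-05), where 2.56% of all genes were called. No member was called in the HSC-like (0.7% of all genes), granulocyte-monocyte progenitor-like (1.03%), group 2 innate lymphoid-like (0.0483%), plasmacytoid dendritic-like (0.604%), class II-high (0.925%) or neutrophil-like cells (1.63%). The count of 15 became 10 without WT replicate 1, 9 without WT replicate 3, 8 without Txnip-KO replicate 3 and 5 with thinned cells.

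Levels in WT alone were compared between the types, each type against the mean of the other 12, for the 37 members with enough counts (edgeR quasi-likelihood test with the sample as a block, 3 WT samples). Of 481 pairs 212 were called. Since the assay counts 3′ ends, these CPM count molecules and are not divided by gene length. Slc25a21 was at 40.6, 32.3 and 40.4 CPM in the erythroid-like cells of WT 1, 2 and 3. In the other types it was at most 5.03 CPM on average, in the neutrophil-like cells, where WT 3 alone held any. Slc25a1 held 184, 177 and 173 CPM in the B-lineage-like cells (log2 difference 2.58), and 57.5 ± 2.33 in the next type, the erythroid-like cells (SD, n = 3). Slc25a37 was also highest in the B-lineage-like cells, at 77.7 ± 4.84 CPM (1.89), and stood at 10.1 ± 3.91 in the plasmacytoid dendritic-like cells.

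Slc25a33 held 38.7, 35.1 and 39.3 CPM in the NK-like cells of the 3 WT samples (log2 difference 2.72), against 10.4 ± 0.696 in the next type, the B-lineage-like cells. The NK-like cells were also high in Slc25a24 (51.2 ± 3.78 CPM, 1.33) and low in Slc25a13, an aspartate-glutamate carrier (3.65 ± 0.276, -2.07). Slc25a12, which carries the same solutes, was highest in the plasmacytoid dendritic-like cells (54.5 ± 4.43 CPM, 1.36) and lowest in the erythroid-like cells (9.38 ± 1.505, -1.40). Slc25a13 was highest in the monocyte-like (28.9 ± 4.05) and granulocyte-monocyte progenitor-like cells (28.9 ± 2.90), which do not differ beyond their spread. The plasmacytoid dendritic-like cells were also the highest in Slc25a53 (37.6 ± 0.985 CPM, 2.30) and Slc25a35 (8.44 ± 1.03, 2.17). Slc25a24 was highest in the neutrophil-like cells, at 126, 179 and 90.6 CPM (2.82), and lowest in the B-lineage-like cells (3.42 ± 1.06, -2.88). Slc25a27 was highest in the HSC-like cells (28.3 ± 4.96 CPM, 1.35) and lowest in the plasmacytoid dendritic-like cells (3.16 ± 1.01, -2.07). Each of these log2 differences was called.

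**Figure D4:**
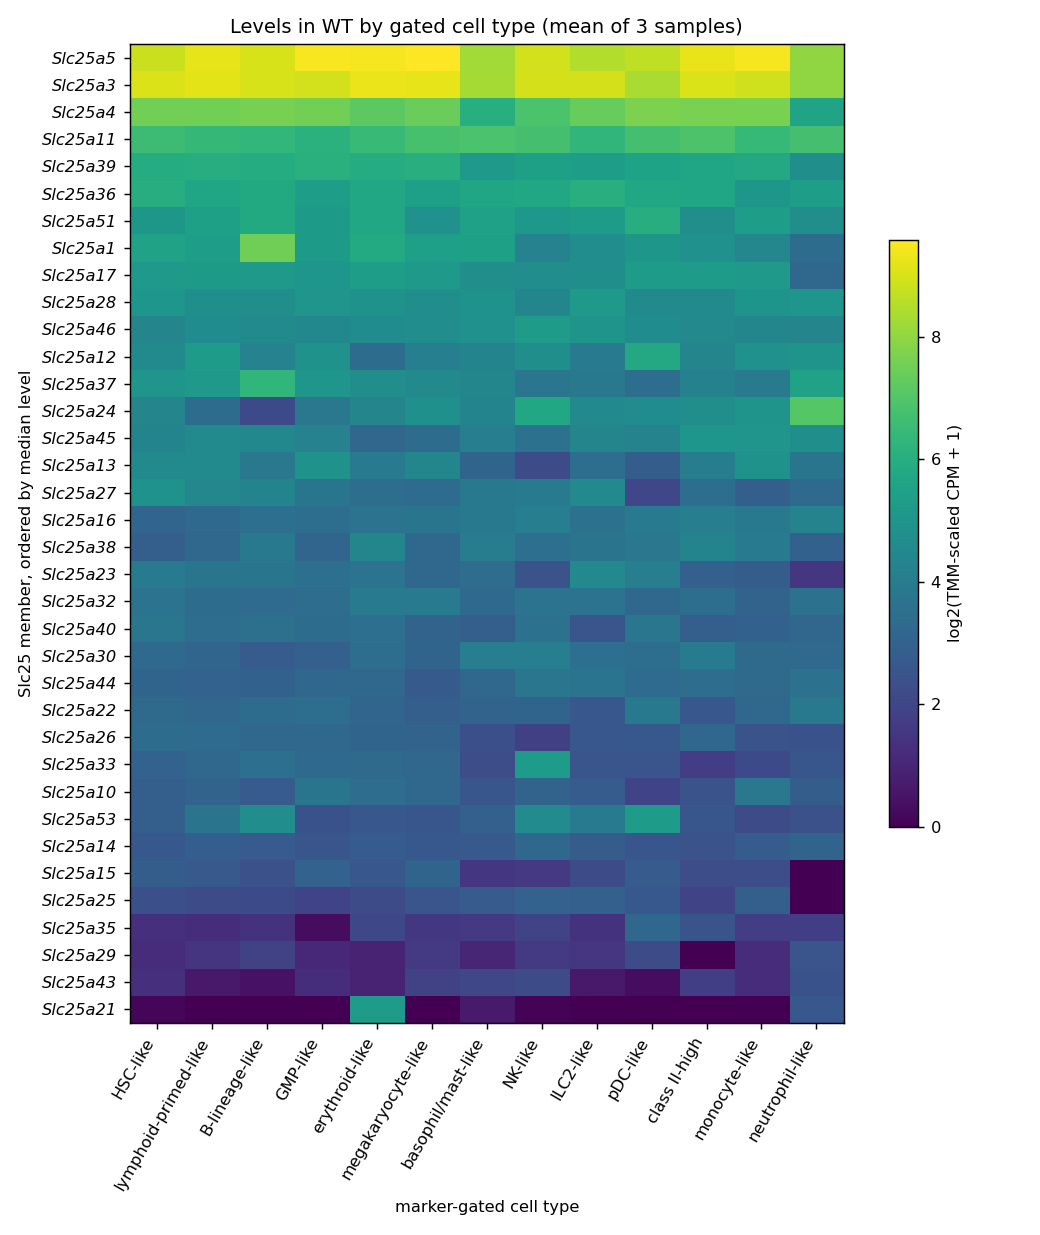
Mean level over the 3 WT samples, as log2(TMM-scaled CPM + 1), of 36 Slc25 members (rows, ordered by median level) in 13 gated cell types (columns). Slc25a5, Slc25a3 and Slc25a4 are the top rows, while Slc25a21 stands out in the erythroid-like, Slc25a1 in the B-lineage-like and Slc25a33 in the NK-like column.

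The abundant carriers were present in every type with smaller differences. Slc25a5 ranged from 256 ± 106 CPM in the neutrophil-like to 764 ± 23.5 in the megakaryocyte-like cells (SD, n = 3 each). The granulocyte-monocyte progenitor-like (713 ± 23.3), monocyte-like (700.2 ± 9.90) and erythroid-like cells (698 ± 39.3) came next and were not apart from each other beyond their spread. Slc25a3 ranged from 253 ± 39.3 CPM in the neutrophil-like to 629 ± 37.5 in the erythroid-like cells. Slc25a4 ranged from 47.2 ± 12.3 CPM in the neutrophil-like to 203 ± 16.6 in the plasmacytoid dendritic-like cells. The heme-related Slc25a38 was highest in the erythroid-like cells (19.9 ± 2.77 CPM, log2 difference 0.89), not apart beyond the spread from the class II-high cells (19.0 ± 3.06), and lowest in the HSC-like cells (6.45 ± 1.13, -0.86).

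The members called per type in these WT levels, of 37 each, are set beside the share of all 11973 genes called in either direction. They were 24 in the NK-like (62.3% of all genes), 22 in the lymphoid-primed progenitor-like (56.1%), 20 in the plasmacytoid dendritic-like (55.7%), and 19 each in the HSC-like (49.7%), erythroid-like (62.6%) and megakaryocyte-like cells (56.3%). They were 17 each in the B-lineage-like (44.7%) and monocyte-like (49.4%), 16 in the granulocyte-monocyte progenitor-like (50.2%), 12 each in the basophil or mast-like (51.2%) and class II-high (34.7%), 8 in the neutrophil-like (25.2%) and 7 in the group 2 innate lymphoid-like cells (31.2%).

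Other genes of mitochondrial transport were read over all kept cells from 6 lists, chosen with earlier results of these data known. Over all genes tested, 21.8% were called higher and 19.3% lower, with a median log2 fold change of 0.04. No test of a list as a set was run. Of the 13 tested genes that bring carriers to the inner membrane, 8 were lower and 1 higher, with a median log2 fold change of -0.42. Timm10b (-0.51, edgeR adjusted p = 0.00225) and Tomm22 (-0.42, edgeR adjusted p = 0.0034), parts of that import route, had the smallest p. Of the pyruvate carrier and outer membrane channel genes, 4 of 5 were lower, led by both subunits of the pyruvate carrier, Mpc1 (-0.81, edgeR adjusted p = 0.000782) and Mpc2 (-0.54, edgeR adjusted p = 0.00111). Of the family's relatives with other symbols, 2 of 3 tested were lower, Mtch1 (-0.38, edgeR adjusted p = 0.00659) and Mtch2 (-0.28, edgeR adjusted p = 0.00964). Of 8 genes of the calcium uniporter and cation exchange, 2 were lower and 1 higher, with the smallest p for Smdt1, a uniporter subunit (-0.73, edgeR adjusted p = 0.00105), and Micu2 (-0.34, edgeR adjusted p = 0.0111). The 9 sideroflexins and mitochondrial ABC transporters held 1 higher, Sfxn3 (0.40, edgeR adjusted p = 0.00983), and 1 lower, Sfxn2 (-0.33, edgeR adjusted p = 0.0253). The 10 tested regulators of mitochondrial biogenesis held 1 higher, Esrra (0.31, edgeR adjusted p = 0.0351), and 1 lower, Tfam (-0.38, edgeR adjusted p = 0.00277), which packs mitochondrial DNA.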

How the data were processed

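Single-cell libraries of flow-sorted mouse bone marrow (3 WT and 3 Txnip-KO samples) were deposited as raw UMI counts per gene and cell barcode. The counts come from Cell Ranger 6.1.1, per the file headers; CASAVA 1.8 and Seurat 2.3.4 are also named in the submitters' processing notes. Genome build, annotation and counting strand: not given in the sources used here.

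Of 48277 barcodes, 44399 held at least 500 genes and 1000 UMIs and at most 10% mitochondrial UMIs. Doublets were scored with Scrublet (scanpy 1.11.5), and the highest-scoring 2886 (6.50015%, 0.8% per 1000 barcodes) were removed. A cell was gated to a type when it held UMIs of the 2 defining markers and of at least 3 of the list; cells in several gates (8.20%) or in none (28.7%) entered the sums over all cells only. UMIs were summed per sample and per sample and type, filtered with filterByExpr, scaled by TMM and tested with edgeR 4.0.16 (R 4.3.3, glmQLFit and glmQLFTest, Benjamini-Hochberg over all genes tested, threshold 0.05). Adjusted p-values in the text are edgeR's unless DESeq2 (1.42.0) is named. The interaction of type and genotype and the WT levels were fitted over all compared types with the sample as a block. Per-type CPM come from each type's own fit, and WT levels from the joint fit. The scripts were tested on simulated data. Depth per sample stands in the report, and intervals of counting error were not needed because tests rest on the spread between samples.

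Same-numbered samples of the 2 groups had correlations of their deviations from the group means of 0.16, 0.12 and 0.11 over genes, all over 0.1. The main genotype tests over all kept cells and within types, and the permutation test, are unpaired. A fit with the replicate number of the labels as a block was run as an alternative. A blocked value is given where it changes a call among the results recomputed one by one. Those were the members over all kept cells, the called pairs, the 3 members with the smallest p of each type and the pairs with a called interaction. Other pairs called with the block alone are in its counts but are not named. Values in every sample are given for members called over all kept cells with a log2 fold change of at least 0.5 in size, members called in at least 3 types, and the most abundant member of each role group; of each type the 3 members with the smallest p are named, and of each other list the 2 genes with the smallest p. Other members named were chosen after their values were seen. The members and lists were chosen with earlier results of these data known. Alternatives covered the scaling, the count filter, doublets, cell filters, thinning, gates, Leiden clusters, dividing cells, cell numbers, DESeq2, the replicate block and each replicate left out. Scaling by total UMIs and the narrower gates were chosen after seeing the data. The values of 1 member, included in the counts, are not reported here.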

Additional observations from a re-analysis of the deposited data

Results flagged for a closer look

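The genotype effect of these members differed between a cell type and the NK-like cells by the interaction test (edgeR, adjusted over all genes), given here as the difference of the 2 log2 fold changes. Positive values mean a higher Txnip-KO over WT ratio than in the NK-like cells. In the lymphoid-primed progenitor-like cells Slc25a33 differed by -1.53. In the B-lineage-like cells Slc25a51 differed by 0.57, Slc25a37 by -0.68, Slc25a39 by -1.12 and Slc25a1 by -1.10. In the erythroid-like cells Slc25a5 differed by 0.44, Slc25a3 by 0.62 and Slc25a28 by -0.49, and in the megakaryocyte-like cells Slc25a3 by 0.43. In the basophil or mast-like cells Slc25a5 differed by 0.85, Slc25a3 by 0.82 and Slc25a4 by 0.78. In the monocyte-like cells Slc25a5 differed by 0.50, Slc25a3 by 0.50 and Slc25a11 by 0.49. Of these 15 differences, 5 were called in every alternative run for them, namely Slc25a33 in the lymphoid-primed progenitor-like, Slc25a3 in the erythroid-like, and Slc25a5, Slc25a3 and Slc25a4 in the basophil or mast-like cells. The interaction was not run with the narrower B-lineage and basophil gates.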

How the results depend on the processing

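Over all kept cells the counts of 7 higher and 9 lower members moved to 6 and 5 with each cell thinned to 1000 UMIs and to 5 and 3 in the cells without a dividing UMI. The calls over all genes fell too, from 3190 higher and 2834 lower of 14648 tested. They were 1327 and 1278 of 11884 with thinned cells, and 1314 and 1337 of 12034 without a dividing UMI. The members' counts ran from 6 to 9 and from 7 to 10 with 1 replicate left out. Within types, 40 higher and 45 lower pairs became 8 and 11 with thinned cells, 4 and 5 without dividing UMIs, and 24 and 32 with DESeq2's Wald test, and ran from 23 to 39 and from 21 to 41 with 1 replicate left out. The 15 interaction calls became 5 with thinned cells and ran from 8 to 18 with 1 replicate left out. The 212 WT level calls became 59 with thinned cells and ran from 164 to 185 with 1 WT replicate left out. The cause of these shifts was not tested, and the cells without a dividing UMI are another mix of types than all kept cells. Every other alternative gave counts within 1.5 times the main ones.

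In the cells without a dividing UMI the log2 fold change turned in sign for Slc25a30 (-0.00059) and Slc25a10 (0.0796) over all kept cells, for Slc25a4 in the lymphoid-primed progenitor-like (0.0168) and erythroid-like cells (0.0083), for Slc25a39 in the B-lineage-like cells (0.0808), and for Slc25a5 in the erythroid-like (0.14) and megakaryocyte-like cells (0.31). With thinned cells it turned for Slc25a11 in the erythroid-like (0.10) and Slc25a4 in the megakaryocyte-like cells (0.14). The WT level of Slc25a21 in the neutrophil-like cells ran from -1.35 without WT replicate 3 to 6.08 without WT replicate 2 and was -1.42 with the stricter marker gate. Of the 16 members called over all kept cells, 8 were called in every alternative in which they were tested, Slc25a36, Slc25a23, Slc25a27, Slc25a28, Slc25a29, Slc25a35, Slc25a38 and Slc25a11 (Slc25a29 was not tested in the cells without a dividing UMI), and of the 85 called pairs within types, 15. Leaving out 1 replicate added calls over all kept cells for Slc25a14 (-0.41, adjusted p = 0.0405) and Slc25a53 (0.41, adjusted p = 0.0214) without Txnip-KO replicate 3, Slc25a44 (0.31, adjusted p = 0.0429) without Txnip-KO replicate 2, and Slc25a21 (0.64, adjusted p = 0.0285) without Txnip-KO replicate 1. The replicate block gave 8 higher and 10 lower members and 40 higher and 46 lower pairs. Among the results recomputed one by one, it changed no call but those named in the report. The other pairs entered these counts alone, and calls that the block added among them are not named.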
